A study of Mus musculus with 16 samples.

Results

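The BCL2 family genes described here were the 10 genes named Bcl2l1, Bcl2l10, Mcl1, Bax, Bak1, Bok, Bbc3, Pmaip1, Bcl2l11 and Bid in a table of 43437 gene identifiers, taken by their symbols. Polyadenylated RNA was measured in 16 libraries of mouse 8-cell embryos, each made from 10 pooled embryos (about 80 cells). Zygotes had been injected with double-stranded RNA (dsRNA), which in mouse eggs and early embryos triggers degradation of the matching transcript. The groups were Tfap2cKD (dsRNA against Tfap2c), Tead4KD (dsRNA against Tead4), DoubleKD (dsRNA against Tfap2c and Tead4) and the control dsGFP (dsRNA against GFP), with 4 libraries in each. Libraries A1 and A2 of every group came from cross A, with C57BL/6J×CBA/J mothers, and B1 and B2 from cross B, with C57BL/6J×DBA/2J mothers. Fathers are labelled C57BL/6J×DBA/2J on the first label of each cross, and the closing strain number then climbs from label to label. All embryos had their zonae removed with acidic Tyrode solution and were cultured in KSOM medium. The labels do not state separate cultures or matings within a group, and a p-value therefore reflects only how pools of embryos varied.

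Proteins of the BCL2 family decide whether the outer mitochondrial membrane is opened during apoptosis, the step that releases cytochrome c and leads to caspase activation. Pro-survival members such as BCL-XL (Bcl2l1) and MCL1 hold the effectors BAX, BAK and, by a less understood route, BOK in check. The BH3-only members, among them BID, BIM (Bcl2l11), NOXA (Pmaip1) and PUMA (Bbc3), release or activate the effectors when a cell is stressed. Mouse embryos that lack Mcl1 die around implantation, and apoptosis itself is rarely seen before the blastocyst stage. Only transcripts were measured here, not proteins or cell death. In pools of whole embryos, fewer cells of a kind and less RNA per cell cannot be told apart.

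The promoters of the 3 genes that differed most between the groups are shown because the depleted proteins are DNA-binding factors. They are RefSeq sequences of GRCm38.p6 from 250 bases before to 50 bases after a gene start, and 8 of the 10 genes have an entry, with 13 promoters. Capitals mark matches, on either strand, to GGAATG, the core bound by TEAD factors, or to GCCNNNGGC, the core bound by AP-2 factors, the family of Tfap2c; the motifs share no overlapping match here. The Bcl2l1 promoter is chr2:152831679-152831978 on the minus strand, that of Bcl2l11 is chr2:128125788-128126087 on the plus strand, and that of Bid is chr6:120916775-120917074 on the minus strand.
Bcl2l1 promoter: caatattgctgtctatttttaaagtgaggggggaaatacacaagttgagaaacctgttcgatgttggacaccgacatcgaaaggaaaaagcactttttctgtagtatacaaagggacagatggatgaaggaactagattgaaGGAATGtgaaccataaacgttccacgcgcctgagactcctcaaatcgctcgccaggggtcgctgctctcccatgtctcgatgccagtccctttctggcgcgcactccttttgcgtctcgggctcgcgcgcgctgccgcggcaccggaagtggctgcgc
Bcl2l11 promoter: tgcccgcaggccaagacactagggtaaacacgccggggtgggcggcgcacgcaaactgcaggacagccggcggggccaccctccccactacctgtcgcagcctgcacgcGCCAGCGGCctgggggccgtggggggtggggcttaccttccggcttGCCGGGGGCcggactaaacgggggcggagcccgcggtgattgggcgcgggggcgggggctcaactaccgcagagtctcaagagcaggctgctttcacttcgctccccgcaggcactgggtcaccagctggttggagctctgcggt
Bid promoter: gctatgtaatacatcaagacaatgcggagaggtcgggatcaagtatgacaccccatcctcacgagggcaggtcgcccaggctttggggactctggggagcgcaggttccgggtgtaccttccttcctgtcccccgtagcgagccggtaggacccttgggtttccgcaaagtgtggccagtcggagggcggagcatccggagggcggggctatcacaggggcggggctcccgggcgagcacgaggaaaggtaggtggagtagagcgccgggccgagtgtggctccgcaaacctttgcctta
The shown Bcl2l1 promoter held 1 GGAATG match, 108 bases before the start, and the other 2 Bcl2l1 promoters held neither motif. The shown Bcl2l11 promoter held 2 GCCNNNGGC matches, 141 and 95 bases before the start. The Bid promoter held neither. GGAATG was also present in the Mcl1 promoter and GCCNNNGGC in the other Bcl2l11 promoter and in 3 promoters of Bbc3, while Bax, Bok and Bak1 held neither. Among all 32851 promoters of this length, 14.7% held GGAATG and 16.6% held GCCNNNGGC. The Bbc3 promoters chr7:16310011-16310310 and chr7:16310181-16310480 overlap and share a match. A match is a string of letters and was not tested for binding.

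Values are FPKM (fragment counts scaled to transcript length and to the library's total), so that levels of different genes can be set side by side. The libraries had between 10049 and 10504 genes at 1 FPKM or more, and a relative depth, estimated from the steps of low FPKM values, of 0.873 to 1.12; absolute depth is unknown. Tfap2c averaged 15.8 ± 1.65 FPKM in Tfap2cKD and 16.2 ± 0.342 FPKM in DoubleKD, against 35.7 ± 6.60 FPKM in dsGFP (SD, n = 4 each). Tead4 averaged 7.66 ± 2.49 FPKM in Tead4KD and 9.49 ± 3.94 FPKM in DoubleKD, against 48.6 ± 7.00 FPKM in dsGFP, and it was also lower in Tfap2cKD, at 28.3 ± 7.77 FPKM (limma adjusted p = 0.0192). That call was lost without Tfap2cKD A1 (0.0594), dsGFP A1 (0.0692) or dsGFP A2 (0.0507). All 8 markers of the preimplantation embryo passed the expression filter, and none of 8 cumulus cell and 5 sperm markers did. Of 6 blood markers, 2 passed, Hba-a1 and Hba-a2. The summed FPKM of the blood list was 29.3 to 63.0 in Tfap2cKD, 20.3 to 50.9 in Tead4KD, 40.7 to 77.7 in DoubleKD and 9.86 to 26.8 in dsGFP, with Hbb-bs, Hbb-bt and Ptprc at 0 in every library. The summed FPKM of the preimplantation list was 5639 to 6923 in Tfap2cKD, 7669 to 8536 in Tead4KD, 5939 to 7189 in DoubleKD and 8036 to 8933 in dsGFP. Most of that sum is Dppa3, which averaged 6086 FPKM in Tfap2cKD, 7906 FPKM in Tead4KD and 6400.5 FPKM in DoubleKD, against 8269 FPKM in dsGFP, and the list also holds Tfap2c and Tead4. Of 10 oocyte transcripts 4 passed the filter, and their list summed to 20.6 to 30.3 FPKM in Tfap2cKD, 15.95 to 56.7 FPKM in Tead4KD and 22.4 to 37.6 FPKM in DoubleKD, against 15.7 to 28.5 FPKM in dsGFP. Its most abundant gene, Zp3, had 13.2 to 17.7 FPKM in Tfap2cKD, 10.5 to 34.1 FPKM in Tead4KD and 15.4 to 21.9 FPKM in DoubleKD, against 5.69 to 11.5 FPKM in dsGFP, so that only Tead4KD overlapped dsGFP. Library DoubleKD B1 stood apart with 234 FPKM summed over 8 transcripts of the 2-cell stage, and Tfap2cKD reached 62.7, Tead4KD 38.5 and dsGFP 37.5 at most. The part of these lists in the results was not tested.

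Bax was the most abundant of the 10 genes as listed. The order of levels in dsGFP was Bax, then Mcl1 and Bok, then Bid, Bcl2l11 and Bcl2l1, then Pmaip1 and Bcl2l10. Bax averaged 62.5 ± 8.36 FPKM in dsGFP, above 84.7% of the genes tested, and was higher than Mcl1 in 16 of 16 libraries. Mcl1 at 39.9 ± 4.37 FPKM and Bok at 39.8 ± 2.77 FPKM overlapped in dsGFP. Bid at 13.0 ± 1.86 FPKM overlapped Bcl2l11 at 8.72 ± 2.77 FPKM, which overlapped Bcl2l1 at 5.86 ± 0.679 FPKM. Pmaip1 at 1.47 ± 1.23 FPKM and Bcl2l10 at 1.09 ± 0.605 FPKM, near the filter, also overlapped (all SD, n = 4). Bbc3, whose product PUMA is a p53-responsive BH3-only protein, ranged from 0 to 0.175 FPKM over the 16 libraries. Bak1 was listed at 0 in all 16 libraries. Its whole span of 8816 bases lies within Ggnbp1, which averaged 2.25 ± 0.202 FPKM in dsGFP. Strand use in counting is not given, so whether this 0 means no Bak1 transcript cannot be told. The expression filter, 1 FPKM or more in 4 or more libraries, kept 8 of the 10 members and 11422 genes in all, and left out Bbc3 and Bak1. Changes are differences of log2(FPKM + 1), which understate the change of low genes such as Pmaip1 and Bcl2l10, and passed at a limma adjusted p under 0.05 over all 11422 genes.

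Among the pro-survival genes, Bcl2l1 fell in Tead4KD to less than its level in any other library. Bcl2l1 (chr2:152758732-152833803) had 3.29, 2.75, 2.66 and 1.89 FPKM in the Tead4KD libraries A1, A2, B1 and B2, against 6.42, 5.54, 6.42 and 5.05 FPKM in dsGFP. The groups did not overlap, and the Tead4KD mean of 2.65 ± 0.575 FPKM was 45.2% of the dsGFP mean (SD, n = 4). The change was -0.92 (95% interval -1.23 to -0.61, limma adjusted p = 0.00141), and it was lower in Tead4KD in both crosses. It passed in 25 of 27 alternatives, and with 2 libraries a group it was -0.80 in cross A alone (adjusted p = 0.0630) and -1.04 in cross B alone (adjusted p = 0.0896). Bcl2l1 had 7.27, 6.07, 8.26 and 7.42 FPKM in Tfap2cKD, where the change of 0.27 did not pass (adjusted p = 0.181). In DoubleKD, which received the same Tead4 dsRNA, Bcl2l1 had 6.53, 5.99, 7.49 and 5.48 FPKM, within or above the dsGFP range. The difference between DoubleKD and dsGFP was 0.10 (95% interval -0.20 to 0.41, adjusted p = 0.649), an interval that does not reach the Tead4KD change. Bcl2l1 shares 6308 of its 75072 bases with Cox4i2, and strand use in counting is not given in the sources used here. Cox4i2 averaged 5.18 ± 0.806 FPKM in Tead4KD and 4.89 ± 3.47 FPKM in dsGFP, 7.18 FPKM in Tfap2cKD and 9.28 FPKM in DoubleKD. By library it had 5.01, 4.12, 5.88 and 5.72 FPKM in Tead4KD, against 2.07, 1.70, 7.80 and 7.98 FPKM in dsGFP. Tead4KD thus lay above dsGFP in cross A and below it in cross B. A part of Cox4i2 in the Bcl2l1 values was not tested.

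Mcl1, which encodes a short-lived guard of BAK, stayed within a narrow range. It had 39.5, 42.9, 45.6 and 48.3 FPKM in Tfap2cKD, 48.1, 44.2, 36.7 and 37.0 FPKM in Tead4KD and 40.4, 41.4, 36.2 and 42.8 FPKM in DoubleKD, against 40.0, 46.0, 37.1 and 36.3 FPKM in dsGFP. Every group overlapped dsGFP. The changes were 0.14 in Tfap2cKD (95% interval -0.08 to 0.36), 0.05 in Tead4KD (-0.17 to 0.27) and 0.02 in DoubleKD (-0.20 to 0.24), and none passed. Bcl2l10 encodes an oocyte-rich relative that is grouped here with the pro-survival genes, although effects in both directions have been reported for it. It had 1.31, 1.85, 1.18 and 1.20 FPKM in Tfap2cKD, 1.22, 1.12, 0.896 and 2.096 FPKM in Tead4KD and 1.80, 0.753, 0.915 and 0.917 FPKM in DoubleKD, against 0.580, 1.96, 0.834 and 0.987 FPKM in dsGFP. The groups overlapped and no change passed.

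**Figure D1:**
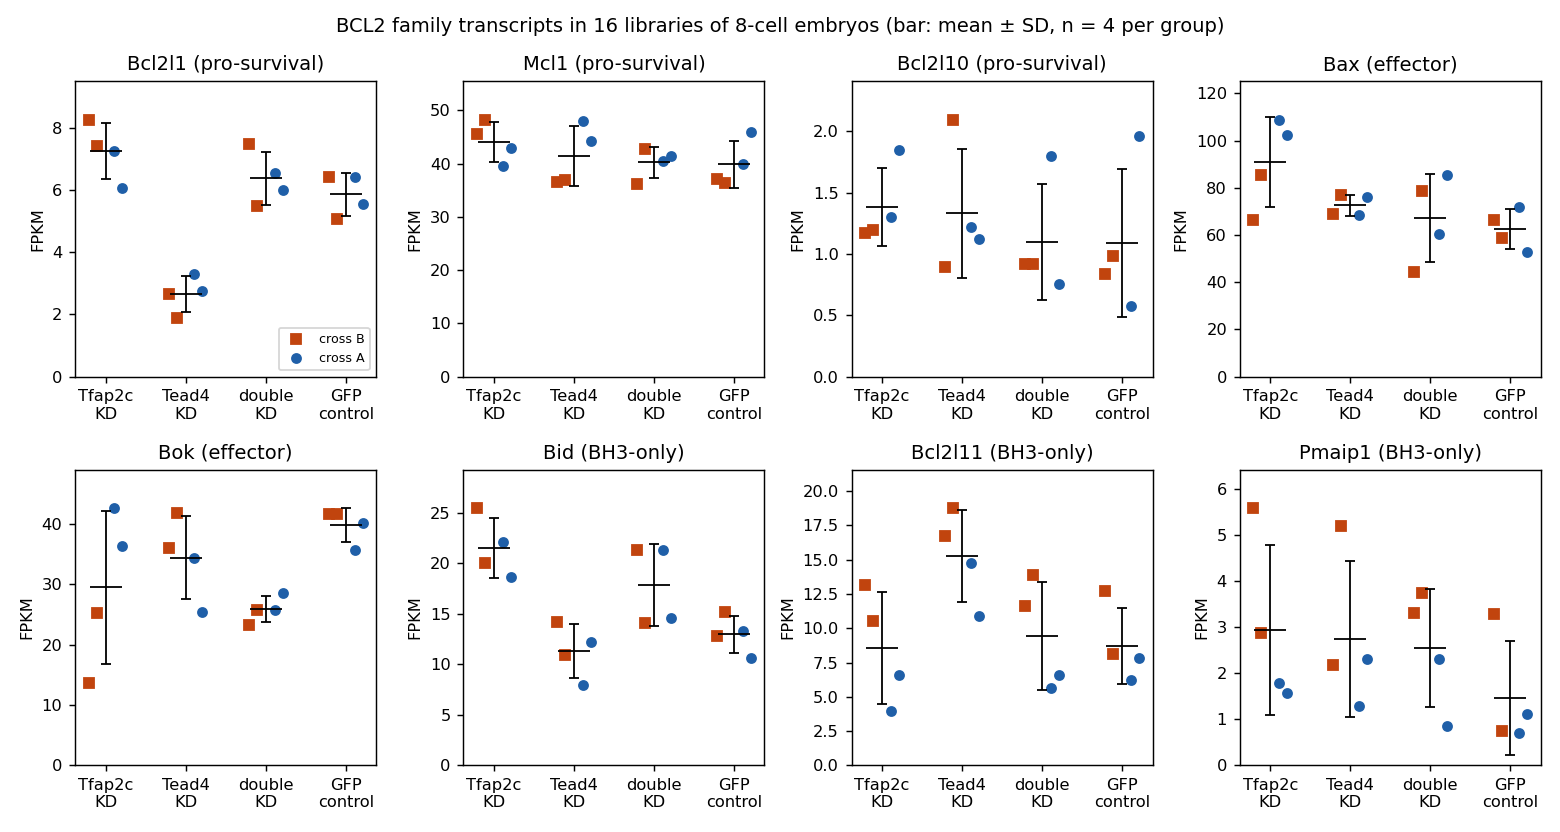
FPKM of 8 BCL2 family genes (1 panel each, linear axis from 0) in the Tfap2cKD, Tead4KD, DoubleKD and dsGFP groups; squares are libraries of cross B, circles libraries of cross A, and the bar with whiskers is the mean ± SD of 4 libraries. Bcl2l1 lies at 1.89 to 3.29 FPKM in Tead4KD and at 5.05 FPKM or more in every other library, and Bid lies higher in every Tfap2cKD library than in any dsGFP library.

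Of the effectors, Bax rose in Tfap2cKD and Bok had its lowest mean in DoubleKD, without passing. Bax (chr7:45461695-45466903), which forms pores in the mitochondrial membrane, had 109, 103, 66.5 and 85.4 FPKM in Tfap2cKD, against 72.0, 52.9, 66.4 and 58.8 FPKM in dsGFP. Library Tfap2cKD B1 lay within the dsGFP range and the other 3 above it. The change was 0.52 (95% interval 0.14 to 0.89, limma adjusted p = 0.0382). It passed in 18 of 27 alternatives, with adjusted p from 0.0185 to 0.499, and was 0.77 in cross A alone and 0.27 in cross B alone. Its call was lost without Tfap2cKD A1 (adjusted p = 0.0985), A2 (0.0885) or B2 (0.0827) and without dsGFP A1 (0.0514), A2 (0.123) or B2 (0.0727). Bax had 68.5, 75.9, 69.0 and 76.9 FPKM in Tead4KD and 60.5, 85.5, 44.4 and 78.6 FPKM in DoubleKD, overlapping dsGFP, and neither change passed (0.22, adjusted p = 0.541, and 0.07, adjusted p = 0.816).

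Bok (chr1:93685575-93695770) had 25.8, 28.6, 23.3 and 25.7 FPKM in DoubleKD, against 35.7, 40.2, 41.6 and 41.6 FPKM in dsGFP. All DoubleKD libraries lay below all dsGFP libraries, but the change of -0.60 (95% interval -1.13 to -0.08) did not pass in the fit of all groups (adjusted p = 0.0871). It passed when only DoubleKD and dsGFP entered the fit (adjusted p = 0.00374) and when Tfap2cKD B1 was left out (adjusted p = 0.0132), with adjusted p over the alternatives of up to 0.194. Bok spread widely in Tfap2cKD, at 42.6, 36.3, 13.7 and 25.3 FPKM, with the cross A libraries near dsGFP and the cross B libraries below it. The change was -0.53 over all libraries (adjusted p = 0.119), 0.05 in cross A alone and -1.12 in cross B alone (adjusted p = 0.0220), and it also passed without Tfap2cKD A1, at -0.73 (adjusted p = 0.0359). The difference between crosses was itself -1.17 (95% interval -1.87 to -0.47, limma adjusted p = 0.128) and did not pass. In Tead4KD Bok had 34.3, 25.4, 36.0 and 41.9 FPKM, overlapping dsGFP.

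Among the BH3-only genes, Bid rose in Tfap2cKD and Bcl2l11 in Tead4KD. Bid (chr6:120893119-120917062), whose product links death receptors to mitochondria after cleavage by caspase-8, had 22.1, 18.6, 25.4 and 20.04 FPKM in Tfap2cKD, against 13.3, 10.6, 12.8 and 15.1 FPKM in dsGFP. The groups did not overlap, and the Tfap2cKD mean of 21.5 ± 2.96 FPKM was 166% of the dsGFP mean. The change was 0.69 (95% interval 0.33 to 1.06, limma adjusted p = 0.00732). It was 0.72 in cross A alone and 0.66 in cross B alone, where 2 libraries a group gave adjusted p of 0.0887 and 0.0886, and it passed in the other 25 of 27 alternatives. In DoubleKD Bid had 21.3, 14.6, 21.3 and 14.1 FPKM, with 2 libraries above and 2 within the dsGFP range, and the change of 0.42 (95% interval 0.05 to 0.78) did not pass (adjusted p = 0.0904). It passed without DoubleKD B2, at 0.55 (adjusted p = 0.0293), among adjusted p of up to 0.455 over the alternatives. In Tead4KD Bid had 7.94, 12.2, 14.2 and 10.9 FPKM, overlapping dsGFP (-0.20, adjusted p = 0.579). The blood list summed to 29.3 to 63.0 FPKM in Tfap2cKD and 40.7 to 77.7 FPKM in DoubleKD, without overlap with dsGFP (9.86 to 26.8 FPKM). In Tead4KD, where Bid was not higher, it summed to 20.3 to 50.9 FPKM and overlapped dsGFP. Zp3 of the oocyte list, given above, likewise overlapped dsGFP only in Tead4KD, but the sum of that list overlapped dsGFP in every knockdown. Gdf9, Oosp1 and Nlrp5, its other genes past the filter, averaged 1.66, 3.46 and 1.48 FPKM in Tfap2cKD. In dsGFP they averaged 1.70, 4.44 and 1.49 FPKM. Their DoubleKD means were 2.25, 4.68 and 1.89 FPKM, with ranges that overlapped dsGFP. A link of these markers to Bid was not tested.

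Bcl2l11 (chr2:128126038-128162547), which encodes BIM, a direct activator of BAX, had 14.8, 10.9, 16.7 and 18.8 FPKM in Tead4KD, against 6.26, 7.80, 12.7 and 8.13 FPKM in dsGFP. Library Tead4KD A2 lay below dsGFP B1, so that the groups overlapped, but within each cross the Tead4KD libraries lay above those of dsGFP. The mean of 15.3 ± 3.34 FPKM was 175% of the dsGFP mean, and the change was 0.76 (95% interval 0.36 to 1.16, limma adjusted p = 0.0275). It passed in 16 of 27 alternatives, with adjusted p from 0.0129 to 0.284, and not under median-ratio rescaling (0.0537), quantile normalization (0.0504) or without the term for cross (0.284). Its call was lost without Tead4KD A1 (0.0835), A2 (0.0541) or B2 (0.0526) and without dsGFP A1 (0.0660) or B2 (0.0959). Bcl2l11 had 3.93, 6.63, 13.2 and 10.5 FPKM in Tfap2cKD and 5.65, 6.59, 11.6 and 13.9 FPKM in DoubleKD. Both groups overlapped dsGFP, with changes of -0.09 (adjusted p = 0.756) and 0.06 (adjusted p = 0.849). Bcl2l11 shares 215 of its 36510 bases with Acoxl, which averaged 5.19 ± 1.92 FPKM in Tead4KD and 3.42 ± 1.06 FPKM in dsGFP.

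Pmaip1, a p53-responsive gene whose product NOXA binds MCL1, had 1.79, 1.57, 5.59 and 2.87 FPKM in Tfap2cKD, 1.30, 2.31, 2.17 and 5.20 FPKM in Tead4KD and 2.31, 0.848, 3.30 and 3.74 FPKM in DoubleKD, against 0.710, 1.12, 3.30 and 0.745 FPKM in dsGFP. The groups overlapped, with dsGFP B1 far above the other dsGFP libraries. The changes of 0.69 in Tfap2cKD (adjusted p = 0.0920), 0.61 in Tead4KD (adjusted p = 0.245) and 0.55 in DoubleKD (adjusted p = 0.190) did not pass. Without dsGFP B1 the Tfap2cKD change was 0.88 and passed (limma adjusted p = 0.0439), among adjusted p of up to 0.338 over the alternatives.

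**Figure D2:**
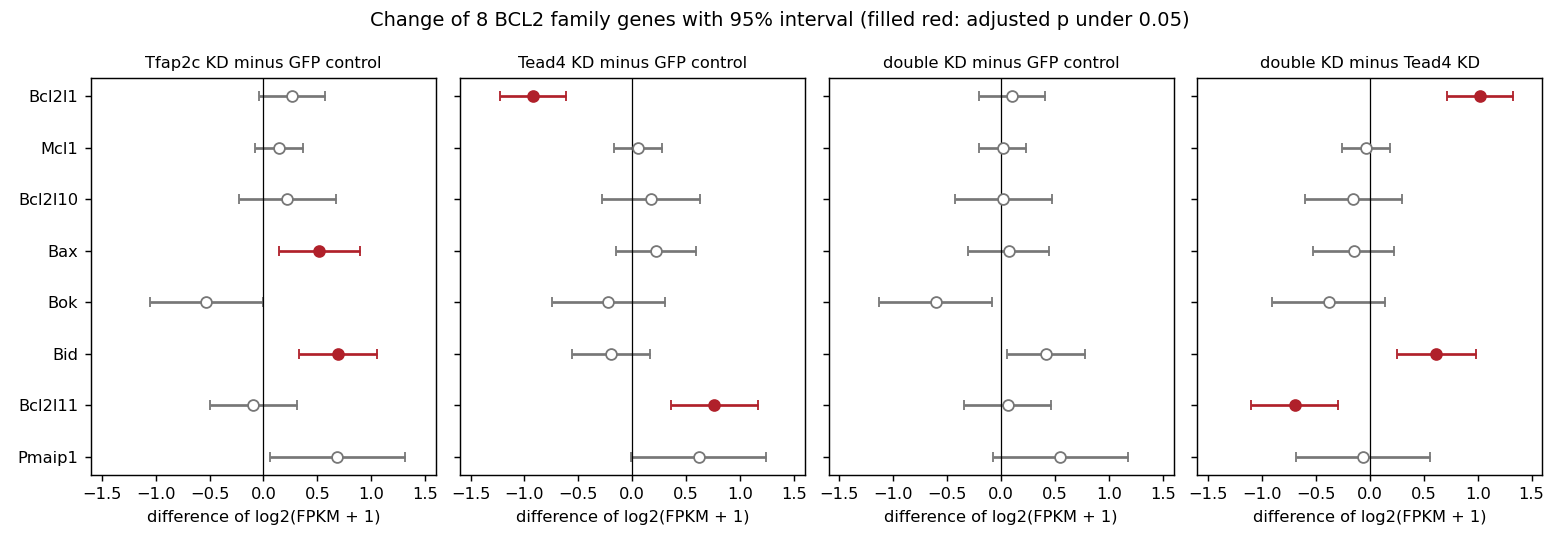
Differences of log2(FPKM + 1) of 8 BCL2 family genes with 95% intervals (horizontal axis) for Tfap2cKD, Tead4KD and DoubleKD minus dsGFP and for DoubleKD minus Tead4KD; filled red points have a limma adjusted p under 0.05. Bcl2l1 and Bcl2l11 point in opposite directions in Tead4KD and sit near 0 in DoubleKD, and Bid is the member with the largest change that passed in Tfap2cKD.

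Counted together, 2 of the 8 tested members passed in Tfap2cKD, both higher, where 29.6% of all tested genes passed, so that the members' share was near the background. In Tead4KD 2 of 8 passed, 1 higher and 1 lower, where 6.13% of all genes did. In DoubleKD 0 of 8 passed by limma, and 2 had an unadjusted p under 0.05 (Bok and Bid), where 25.1% of all genes passed. The median change of the 8 members was 0.24 in Tfap2cKD, 0.11 in Tead4KD and 0.07 in DoubleKD, against 0.06, 0.05 and 0.05 over all genes in the same order. These comparisons share the dsGFP libraries. An F-test over the 3 knockdown contrasts passed for Bcl2l1 (limma adjusted p = 5.51e-05), Bid (0.00296) and Bcl2l11 (0.00749) and for none of the other 5.

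Set directly against Tead4KD, DoubleKD had more Bcl2l1 and Bid and less Bcl2l11. In this comparison 3 of 8 members passed, where 23.7% of all genes did. Bcl2l1 averaged 6.37 ± 0.857 FPKM in DoubleKD and 2.65 ± 0.575 FPKM in Tead4KD (SD, n = 4 each), without overlap. The difference was 1.02 (95% interval 0.72 to 1.33, limma adjusted p = 0.000131) and it passed in all 27 alternatives. Bcl2l11 averaged 9.44 ± 3.96 FPKM in DoubleKD and 15.3 ± 3.34 FPKM in Tead4KD, a difference of -0.70 (adjusted p = 0.0145) that passed in 25 alternatives and was lost without the term for cross (0.176) and in cross B alone (0.234). Bid averaged 17.8 ± 4.02 FPKM in DoubleKD and 11.3 ± 2.63 FPKM in Tead4KD, a difference of 0.61 (adjusted p = 0.0169) that passed in 20 alternatives. The Bid call was lost without DoubleKD A1 (0.0632) or B1 (0.0554) and without Tead4KD A1 (0.0571) or B2 (0.0503), among adjusted p from 0.00604 to 0.256. Without DoubleKD B1, the library high in 2-cell transcripts, Bcl2l1 (0.94, adjusted p = 0.000669) and Bcl2l11 (-0.69, adjusted p = 0.0346) still passed. Tead4 itself differed by 0.24 between these groups (adjusted p = 0.498), and the blood list summed to 40.7 to 77.7 FPKM in DoubleKD and 20.3 to 50.9 FPKM in Tead4KD.

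Between DoubleKD and Tfap2cKD, 0 of 8 members passed by limma and 1 had an unadjusted p under 0.05, where 0.14% of all genes passed. That member was Bax, at 67.2 ± 18.5 FPKM in DoubleKD and 90.8 ± 19.0 FPKM in Tfap2cKD (difference -0.45, adjusted p = 0.415). The Bcl2l1 difference was -0.16 (95% interval -0.47 to 0.14). The non-additive part, the DoubleKD change minus the sum of both single changes, passed for 0 of 8 members by limma and for 0.753% of all genes, and 3 members had an unadjusted p under 0.05. These were Bcl2l1 at 0.76 (95% interval 0.33 to 1.19, adjusted p = 0.108), Bax at -0.67 (adjusted p = 0.272) and Bcl2l11 at -0.60 (adjusted p = 0.380). The Bcl2l1 value stayed positive in all 26 alternatives, with adjusted p from 0.0790 to 0.437.

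Embryos of cross B had more Bcl2l11 and Pmaip1 than embryos of cross A. Bcl2l11 averaged 13.2 ± 3.36 FPKM in cross B and 7.82 ± 3.44 FPKM in cross A (SD, n = 8 each), and both B libraries lay above both A libraries in 4 of 4 groups. The difference was 0.74 (95% interval 0.45 to 1.02, limma adjusted p = 0.000839). Pmaip1 averaged 3.36 ± 1.56 FPKM in cross B and 1.49 ± 0.613 FPKM in cross A, with both B libraries above both A libraries in 2 of 4 groups and a difference of 0.75 (adjusted p = 0.0121). Both passed in all 22 alternatives. In all, 2 of 8 members passed, where 33.5% of all genes did, a share no higher than the background. Mothers and everything else that was specific to a cross cannot be told apart. Whether a knockdown change differed between crosses passed for 0 of 8 members in each knockdown by limma, and for 0 of the 11422 genes, with 1888 genes in Tfap2cKD, 797 in Tead4KD and 1284 in DoubleKD at an unadjusted p under 0.05. At that unadjusted level stood 2 members in Tfap2cKD, Bok and Mcl1, and 0 in the other knockdowns.

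Summed by role, the pro-survival transcripts came to 52.7 ± 3.98 FPKM in Tfap2cKD, 45.5 ± 5.93 FPKM in Tead4KD and 47.7 ± 2.097 FPKM in DoubleKD, against 46.8 ± 4.84 FPKM in dsGFP, with Mcl1 as most of each sum. Mcl1 took 91.2 ± 0.708% of it in Tead4KD, against 85.1 ± 1.05% in dsGFP, and lay at 90.3% or more in every Tead4KD library and at 87.0% or less in all others. Bcl2l1 was 0.184 ± 0.0674 times Bcl2l11 in Tead4KD, against 0.716 ± 0.223 times in dsGFP. The highest Tead4KD ratio was 0.252 and the lowest ratio elsewhere was 0.395, in DoubleKD B2. Effector transcripts summed to 120 ± 31.7 FPKM in Tfap2cKD, 107 ± 7.97 FPKM in Tead4KD and 93.1 ± 20.5 FPKM in DoubleKD, against 102 ± 7.08 FPKM in dsGFP. Bax took 76.5 ± 4.83% of the effector sum in Tfap2cKD, 68.0 ± 4.68% in Tead4KD and 71.5 ± 4.61% in DoubleKD, against 60.9 ± 4.35% in dsGFP. Bok enters this share too, and Bak1 entered the effector sum as 0, which may not mean that its transcript was absent. The BH3-only members Bbc3, Pmaip1, Bcl2l11 and Bid were summed too. They came to 33.1 ± 7.97 FPKM in Tfap2cKD, 29.4 ± 5.39 FPKM in Tead4KD and 29.9 ± 5.95 FPKM in DoubleKD. The dsGFP sum was 23.2 ± 4.26 FPKM, and every knockdown group overlapped it. Bad, a BH3-only gene outside the members, is not in this sum and alone exceeded it in dsGFP. Bad averaged 19.7 FPKM in Tfap2cKD, 57.6 FPKM in Tead4KD and 20.8 FPKM in DoubleKD, against 45.6 FPKM in dsGFP. The rise of the sum in Tfap2cKD and DoubleKD therefore does not cover all BH3-only transcripts. These sums and ratios restate the values above and were not tested.

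The other apoptosis genes form 6 lists with 44 tested genes. Against dsGFP, 8 passed as higher and 9 as lower in Tfap2cKD, 3 as higher and 1 as lower in Tead4KD, and 10 as higher and 8 as lower in DoubleKD. These calls were 38.6% of the 44 in Tfap2cKD, 9.1% in Tead4KD and 40.9% in DoubleKD, where 29.6%, 6.13% and 25.1% of all tested genes passed. The lists were chosen with results of these data known, and the difference between these shares was not tested. Of 16 other BCL2 family genes 7 were tested, and Bcl2, Bik, Bmf and Hrk were among those under the filter. In Tfap2cKD 2 of these 7 rose and 3 fell, in DoubleKD likewise 2 and 3, and in Tead4KD 0 passed by limma. Bcl2l14, a BCL2 relative whose role is less settled, had 71.14 ± 20.002 FPKM in Tfap2cKD and 82.3 ± 19.6 FPKM in DoubleKD, against 169 ± 18.3 FPKM in dsGFP. Bad, a BH3-only gene whose product is held inactive by survival kinases, had 19.7 ± 3.22 FPKM in Tfap2cKD and 20.8 ± 4.01 FPKM in DoubleKD, against 45.6 ± 4.75 FPKM in dsGFP. Both passed in all 27 alternatives (limma adjusted p in Tfap2cKD 4.14e-06 for Bcl2l14 and 4.13e-05 for Bad). Bcl2l13, which encodes a protein of the outer mitochondrial membrane, rose in Tfap2cKD (0.65, adjusted p = 0.000576) and in DoubleKD (0.64, adjusted p = 0.000728). The median of the 7 was -0.23 in Tfap2cKD, -0.18 in Tead4KD and -0.26 in DoubleKD, against 0.06, 0.05 and 0.05 over all genes.

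**Figure D3:**
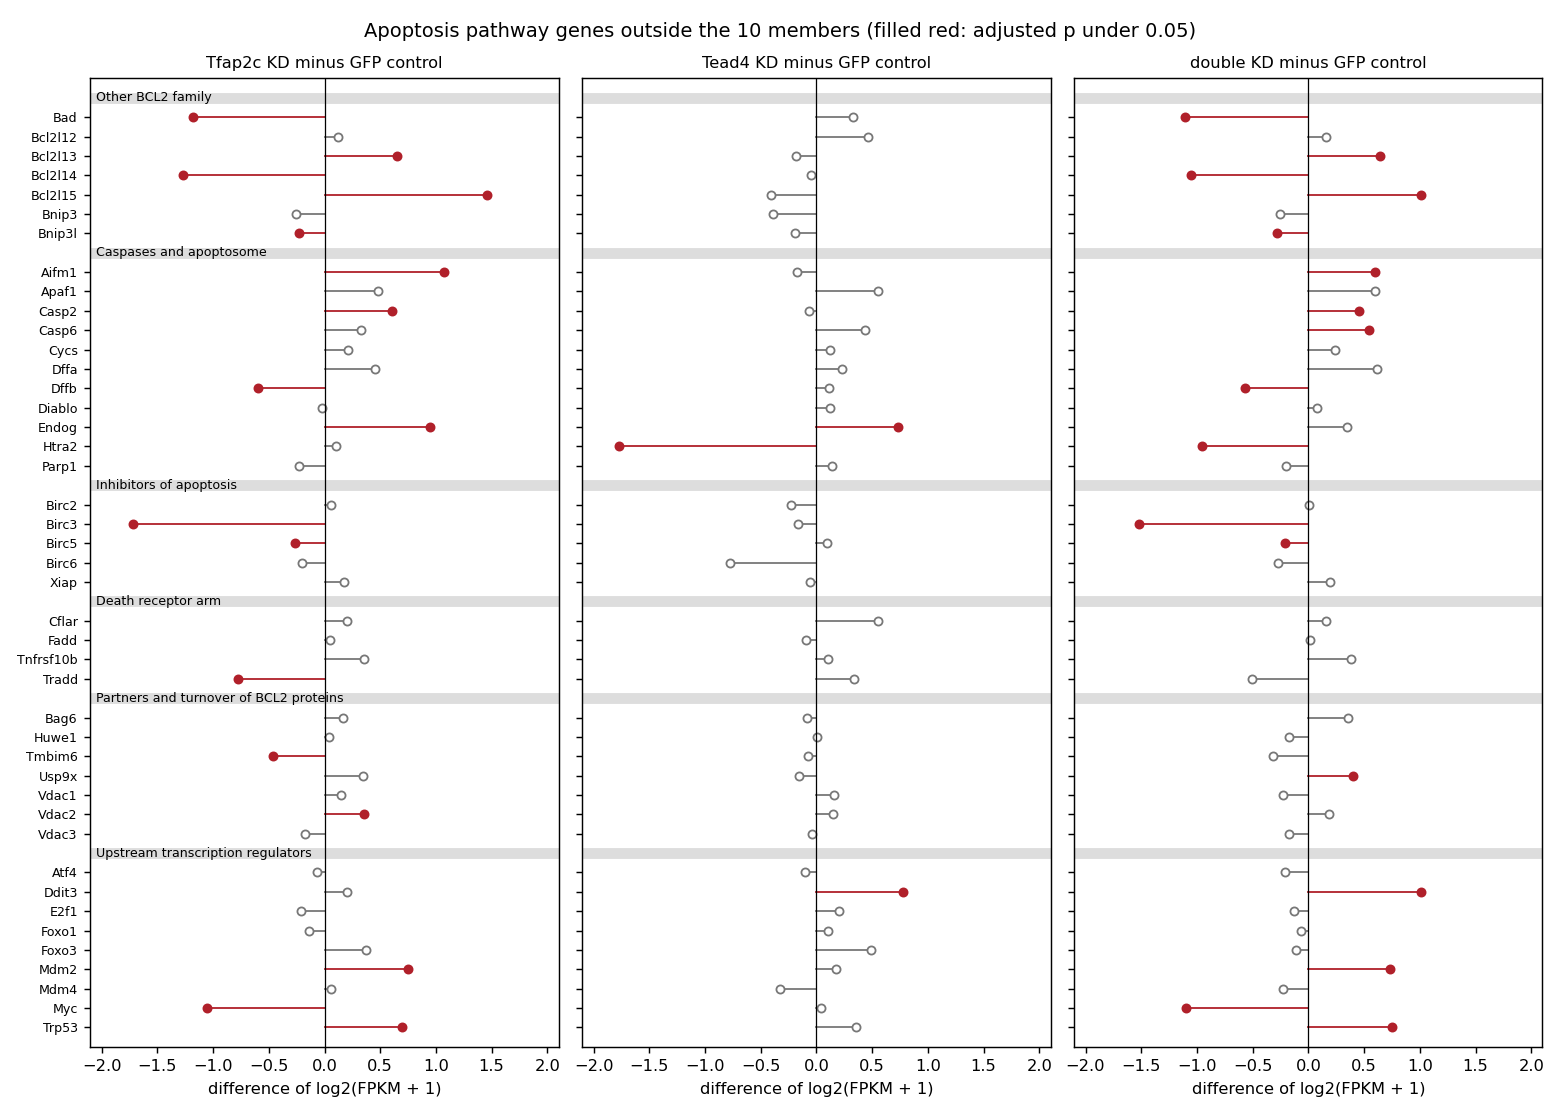
Differences of log2(FPKM + 1) (horizontal axis) of apoptosis genes outside the 10 members, in 6 lists with 1 tested gene not drawn, for Tfap2cKD, Tead4KD and DoubleKD minus dsGFP; filled red points have a limma adjusted p under 0.05. Bad, Bcl2l14 and Birc3 are lower in Tfap2cKD and DoubleKD, and Htra2 is lower in Tead4KD and DoubleKD.

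Of 16 caspase and apoptosome genes 12 were tested: 3 rose and 1 fell in Tfap2cKD, 2 rose and 1 fell in Tead4KD, and 4 rose and 2 fell in DoubleKD. The share that passed was 33.3% in Tfap2cKD, near the 29.6% of all genes, 25% in Tead4KD, against 6.13%, and 50% in DoubleKD, against 25.1%. The median change of the 12 was 0.33 in Tfap2cKD, 0.13 in Tead4KD and 0.40 in DoubleKD. Aifm1, a mitochondrial flavoprotein that can act in cell death, rose to 42.2 ± 4.38 FPKM in Tfap2cKD, against 20.2 ± 6.64 FPKM in dsGFP (1.07, limma adjusted p = 9.69e-05). Htra2, a mitochondrial protease that blocks inhibitors of apoptosis, had 4.51, 4.73, 2.74 and 2.01 FPKM in Tead4KD, against 16.6, 15.5, 9.66 and 14.4 FPKM in dsGFP. The Tead4KD change of -1.77 passed (adjusted p = 0.000144), and so did that of -0.95 in DoubleKD (adjusted p = 0.00351). Endog, a mitochondrial nuclease, passed in Tead4KD at adjusted p = 0.0493 and in Tfap2cKD at 0.00334, and its Tead4KD call was lost in 19 of 27 alternatives (adjusted p up to 0.375), among them those without any library other than Tfap2cKD A1, DoubleKD A2, DoubleKD B1 or dsGFP A2. Casp2 rose in Tfap2cKD (0.61, adjusted p = 0.00493) and Casp6 in DoubleKD (0.54, adjusted p = 0.00660). Casp9, the apoptosome's initiator caspase, was under the filter.

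Of 6 inhibitors of apoptosis 5 were tested, of which 2 fell in Tfap2cKD, 0 passed in Tead4KD and 2 fell in DoubleKD. These shares were 40%, 0% and 40%, where 29.6%, 6.13% and 25.1% of all tested genes passed, and their difference was not tested. The medians were -0.20, -0.17 and -0.21 in these 3 groups, against 0.06, 0.05 and 0.05 over all genes. Birc3, a ubiquitin ligase of this family, had 3.08, 2.91, 5.36 and 3.40 FPKM in Tfap2cKD and 3.25, 2.37, 6.49 and 6.11 FPKM in DoubleKD, against 14.6, 13.9, 12.2 and 15.97 FPKM in dsGFP. Neither group overlapped dsGFP, and the changes were -1.72 in Tfap2cKD (limma adjusted p = 1.06e-05) and -1.52 in DoubleKD (adjusted p = 3.60e-05). Birc5, survivin, which also acts in mitosis, fell by a smaller amount (-0.27 in Tfap2cKD, adjusted p = 0.00730, and -0.21 in DoubleKD, adjusted p = 0.0297). The DoubleKD call of Birc5 was lost under quantile normalization and when DoubleKD A1, DoubleKD A2, dsGFP A1 or dsGFP B2 was left out (adjusted p up to 0.0878). Birc6 in Tead4KD lay at the threshold (16.4 ± 3.48 FPKM in Tead4KD, 29.4 ± 10.1 FPKM in dsGFP, limma adjusted p = 0.05003) and passed in 10 of 27 alternatives, with adjusted p of 0.0264 without DoubleKD B1.

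Of the death receptor arm 4 of 10 genes were tested, and 1 passed, in Tfap2cKD, a share of 25% where 29.6% of all genes passed. That gene, Tradd, an adaptor of TNF receptor signalling, was lower in Tfap2cKD (-0.77, limma adjusted p = 0.0243). Tradd had 1.65, 1.29, 1.87 and 1.83 FPKM in Tfap2cKD, against 2.00, 1.96, 5.93 and 5.80 FPKM in dsGFP, so that most of the fall was in cross B. Its call was lost in 7 of 27 alternatives, among them cross A alone and the fit without the term for cross. It was also lost without Tfap2cKD B1, Tfap2cKD B2, dsGFP B1 or dsGFP B2 (limma adjusted p up to 0.0849). Of 8 partners and turnover factors of BCL2 proteins 7 were tested. The share that passed was 28.6% in Tfap2cKD and 14.3% in DoubleKD, no higher than the 29.6% and 25.1% of all genes. In Tfap2cKD Vdac2, a channel that brings BAK and BAX to mitochondria, rose (0.35, adjusted p = 0.0256). Tmbim6, known as BAX inhibitor 1, fell in Tfap2cKD (-0.47, adjusted p = 0.00954). Tmbim6 had 112, 116, 104 and 128 FPKM in Tfap2cKD, against 123, 123, 201.8 and 211 FPKM in dsGFP. Most of its fall was thus in cross B. The Tmbim6 call was lost in cross A alone and without the term for cross. In DoubleKD Usp9x, which stabilises MCL1, rose (0.40, adjusted p = 0.0331), and in Tead4KD 0 passed. The Vdac2 call was lost without Tfap2cKD A2, Tfap2cKD B1 or dsGFP A1 (adjusted p up to 0.0840) and under median-ratio rescaling. The Usp9x call was lost under both rescalings and without DoubleKD A1, A2 or B1 or dsGFP A2 or B1 (adjusted p up to 0.0986).

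Of 12 upstream transcription regulators 9 were tested: 2 rose and 1 fell in Tfap2cKD, 1 rose in Tead4KD, and 3 rose and 1 fell in DoubleKD. The share that passed was 33.3% in Tfap2cKD, near the 29.6% of all genes, 11.1% in Tead4KD, against 6.13%, and 44.4% in DoubleKD, against 25.1%. The median change of the 9 was 0.06 in Tfap2cKD, 0.17 in Tead4KD and -0.12 in DoubleKD. Trp53, which encodes p53, had 56.5, 44.8, 42.0 and 48.8 FPKM in Tfap2cKD and 50.5, 50.7, 46.7 and 50.6 FPKM in DoubleKD, against 22.8, 23.5, 34.9 and 37.7 FPKM in dsGFP. Neither group overlapped dsGFP (0.70, limma adjusted p = 0.00569, and 0.75, adjusted p = 0.00402). Mdm2, which encodes the ubiquitin ligase of p53, rose in Tfap2cKD (0.75, adjusted p = 0.00446) and in DoubleKD (0.73, adjusted p = 0.00561). Myc fell in Tfap2cKD (-1.06, adjusted p = 0.0110) and DoubleKD (-1.10, adjusted p = 0.0101), by more in cross A than in cross B. Myc had 10.7, 14.6, 47.1 and 36.7 FPKM in Tfap2cKD and 15.4, 8.61, 44.2 and 40.8 FPKM in DoubleKD. In dsGFP it had 46.5, 42.3, 58.9 and 49.3 FPKM. The Tfap2cKD call of Myc was lost without the term for cross and in cross B alone. Ddit3, which encodes the stress-response factor CHOP, rose in Tead4KD to 10.0 ± 2.34 FPKM, against 5.67 ± 2.65 FPKM in dsGFP (0.78, limma adjusted p = 0.00808). It also rose in DoubleKD (1.01, limma adjusted p = 0.000324). Tead4KD A1 and A2, at 9.22 and 7.62 FPKM, lay below dsGFP B1 at 9.29 FPKM, so that these groups overlapped. The Tead4KD call of Ddit3 was lost without the term for cross and in cross B alone, and the DoubleKD call in cross B alone.

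**Figure D4:**
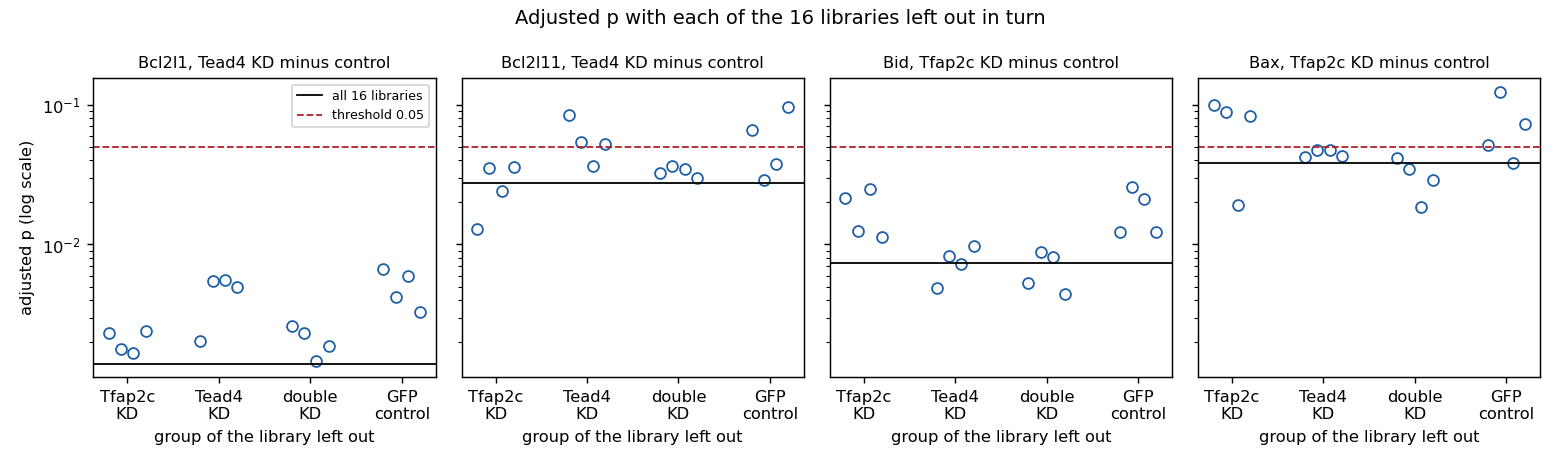
Limma adjusted p (log axis) of 4 changes that passed with all 16 libraries, refitted with each library left out in turn, by the group of that library; the black line is the value with all libraries and the dashed red line the threshold of 0.05. Bcl2l1 and Bid stay under the threshold without any 1 library, and Bcl2l11 and Bax cross it when certain knockdown or dsGFP libraries are left out.

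The genes whose values followed Bcl2l1 most closely, by Pearson correlation of log2(FPKM + 1) over the 16 libraries, were Irgq (r = 0.917), I0C0044D17Rik (r = 0.905) and Trim6 (r = 0.903). The libraries share their groups, so these correlations also reflect differences between groups. Trim6 averaged 17.3 ± 1.27 FPKM in Tead4KD, against 25.8 ± 2.34 FPKM in dsGFP, and Irgq 1.84 ± 0.133 FPKM in Tead4KD, against 3.06 ± 0.395 FPKM in dsGFP (SD, n = 4 each). I0C0044D17Rik averaged 4.96 ± 2.20 FPKM in Tead4KD, against 8.96 ± 0.714 FPKM in dsGFP. It was higher than dsGFP in Tfap2cKD, at 17.1 ± 4.04 FPKM, and in DoubleKD, at 13.6 ± 2.08 FPKM. The Bcl2l1 changes in those groups did not pass.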

How the data were processed

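Zygotes injected with dsRNA gave 16 libraries of pooled 8-cell embryos, made by a Smart-seq2 procedure and a TruePrep V2 kit, per the labels' protocols. The submitters' processing notes list mm10 as the build and the tools Cufflinks, STAR, Trim Galore and CASAVA, with no version or role. The deposited values are FPKM per gene computed by the authors; no counts were used, so no counting interval can be given. The table has 43496 rows, of which 59 repeated an identifier and were summed (none a member). Symbols are those of the table, and locations and promoters those of RefSeq for GRCm38.p6.

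Log2 values were computed here as log2(FPKM + 1). Genes at 1 FPKM or more in at least 4 libraries were fitted with limma 3.58.1 in R 4.3.3 (terms for group and cross, eBayes with trend), two-sided, with Benjamini-Hochberg adjustment over 11422 genes and a threshold of 0.05. A second fit had a group by cross interaction. The fit was tested on simulated data. All 10 members, Tfap2c and Tead4 were named, as were up to 3 genes a list by lowest p in each knockdown, and the 3 genes most like the member with the lowest F-test p; some genes under the filter were named as such, and 1 tested gene of the lists is counted but not reported here. The members and lists were chosen with earlier results of these data known. Relative depth comes from ratios of low FPKM values, 69.2% of which were whole within 0.1.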

Additional observations from a re-analysis of the deposited data

Results flagged for a closer look

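In 44 groups of 4 libraries (the members with any value above 0 and both targeted genes, in each group), 2 values lay far from the other 3 by Dixon's ratio above its 95% critical value, where chance gives about 1 in 20. Bcl2l10 in DoubleKD A1 was 1.80 FPKM, with the other DoubleKD libraries at 0.753 to 0.917 FPKM (ratio 0.843). Pmaip1 in dsGFP B1 was 3.30 FPKM, with the other dsGFP libraries at 0.710 to 1.12 FPKM (ratio 0.840). Both genes are near the expression filter. Without DoubleKD A1 the change of Bcl2l10 in DoubleKD was -0.12 (limma adjusted p = 0.746), and without dsGFP B1 that of Pmaip1 in Tfap2cKD was 0.88 (adjusted p = 0.0439).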

How the results depend on the processing

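Up to 27 alternatives a comparison were run: pseudocounts of 0.1 and 0.5, no filter or one at 8 libraries, median-ratio or quantile rescaling, no cross term, a replicate block, each cross alone, only the groups compared, and each library left out. No called change of a member turned its direction. Members called in Tfap2cKD were 2, but 1 with no filter, 1 with no cross term, 1 in cross A alone (Bax) and 1 in cross B alone (Bok), and from 1 to 3 with a library left out. In Tead4KD they were 2, but 1 with no filter, 1 under median-ratio rescaling, 1 under quantile normalization, 1 with no cross term and 0 in either cross alone, and from 1 to 2 with a library left out. In DoubleKD they were 0, but 1 with only the groups compared (Bok), and from 0 to 1 with a library left out. For DoubleKD against Tead4KD they were 3, but 2 with no cross term, 2 in cross A alone, 1 in cross B alone and 2 with only the groups compared, and from 2 to 3 with a library left out. Deviations of same-numbered libraries from the fit gave 12 correlations from -0.264 to 0.0394, and 0 libraries correlated best with their own number. Removing group and cross means lowers such correlations within a cross. These values therefore cannot show whether same-numbered libraries share more than a number. The replicate block gave 2 in Tfap2cKD, 2 in Tead4KD, 0 in DoubleKD and 3 for DoubleKD against Tead4KD, and changed no member's call. Single crosses have 2 libraries a group. In single-cross fits 6 values of members that had not passed changed sign with a shift of over 1 standard error.

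Genes called in Tfap2cKD numbered 3377, against 2165 with no cross term, 1776 in cross A alone and 2218 in cross B alone. In Tead4KD they were 700, against 279, 250 and 81 in the same settings, 446 without Tead4KD B1 and 407 without dsGFP B2. In DoubleKD they were 2872, against 1786, 1816 and 1227. For DoubleKD against Tead4KD they were 2712, against 1644, 1404 and 1533. For DoubleKD against Tfap2cKD they were 16, from 1 to 22 with a library left out, 8 with the replicate block, 4 with a pseudocount of 0.1, 4 with no filter, 3 with no cross term, 2 in cross A alone and 2 with only the groups compared. The non-additive part had 86, from 12 to 113 with a library left out, 36 with the replicate block, 14 with no filter, 7 with no cross term, 2 in cross A alone and 3 in cross B alone. The cause was not tested. The higher and lower calls in Tead4KD were 383 and 317, against 271 and 398 under median-ratio rescaling and 288 and 396 under quantile normalization. For the non-additive part they were 44 and 42, against 51 and 25, and 47 and 20. Without counts, what depth limits for Bbc3, Bcl2l10 and Pmaip1 cannot be stated.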
